A study of Mus musculus with 6 samples.

Results

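The genes described here are the 10 that carry MHC class I presentation and the immunoproteasome: H2-K1, H2-D1, B2m, Tap1, Tap2, Tapbp, Psmb8, Psmb9, Psmb10 and Nlrc5. They were chosen by name for their place in the pathway, with no cutoff on expression, at a time when earlier results of these data were known. All 10 were found among the 53618 named genes of the expression table, and all 10 were among the 12298 genes with a normalized count of at least 10 in at least 3 libraries, on which the tests were run. RNA was sequenced in bulk from sorted GFP+Lin-c-Kit+ spleen cells of mice with AE9a leukemia, a model of acute myeloid leukemia driven by a truncated AML1-ETO fusion protein. The leukemia was made from fetal liver cells of Usp18+/f UBCER-Cre mice with a retrovirus that also expresses GFP, and was passed on to irradiated C57BL/6 recipients of both sexes, aged 8 to 12 weeks per the study's methods. Sick recipients received 3 injections of oil (Usp18+/f, 3 mice) or of tamoxifen (Usp18+/Δ, 3 mice), and cells were sorted 3 days after the first injection. Cre is driven in all tissues by the ubiquitin C promoter and is switched on by tamoxifen. Only 1 Usp18 allele is floxed, both groups carry the same Cre and fusion gene, and the tamoxifen group differs from oil by the drug as well as by the allele. By its labels, the comparison asks how loss of 1 Usp18 allele changes these genes in leukemia cells. Usp18 encodes an ISG15 protease that restrains the interferon receptor.

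MHC class I molecules show peptides from inside the cell to cytotoxic T cells. A heavy chain, such as the products of H2-K1 and H2-D1, pairs with the light chain beta-2-microglobulin (B2m) and binds peptides that the transporter TAP (Tap1 and Tap2) carries into the endoplasmic reticulum, where tapasin (Tapbp) holds an empty class I molecule beside the transporter. Under interferon the proteasome exchanges its catalytic subunits for Psmb8, Psmb9 and Psmb10, which alters the peptides it makes, and NLRC5, the class I transactivator, drives the promoters of most of these genes. The set is a standard part of the interferon response and of how leukemia cells are seen by T cells.

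The 7 members on chromosome 17 lie in the mouse MHC (positions from GENCODE vM21, build mm10). Tapbp (chr17:33915899-33929292, plus strand) and H2-K1 (chr17:33996017-34000347, minus strand) lie to one side. Psmb9, Tap1, Psmb8 and Tap2 form a block of 34335 bases at chr17:34181987-34216321, in which Psmb9 alone is on the minus strand, and H2-D1 lies at chr17:35262730-35267499 on the plus strand. B2m is at chr2:122147686-122153083 on the plus strand, within a gene model of Patl2 on the other strand. Psmb10 (chr8:105935735-105938444, minus strand) and Nlrc5 (chr8:94434356-94527272, plus strand) are on chromosome 8. In RefSeq the start sites of Psmb9 and Tap1 were 226 bases apart and the genes run away from each other.

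Class I promoters are known for a kappaB and interferon-response region followed by an SXY module, which NLRC5 needs, and stretches are shown for the chains and for Psmb8 to make these elements visible. RefSeq (GRCm38.p6) gave a window of 250 bases before to 50 bases after the start site for 8 of the 10 members, with none matched for Tap2 and Nlrc5. In the stretches below, capitals mark, in H2-K1 from left to right, a kappaB motif (GGGNNTTCC), an interferon regulatory factor core (AANNGAAA, here on the other strand), the X2 half-site of the SXY module (TGACG) and a Y box (ATTGG). The H2-K1 stretch is chr17:34000348-34000464 on the minus strand, and that of H2-D1, chr17:35262923-35262951 on the plus strand, runs from the kappaB motif to the interferon regulatory factor core. The latter lies within the 5′ exon of a GENCODE transcript that starts farther upstream. B2m is chr2:122147542-122147644 on the plus strand, with a full interferon-stimulated response element (GAAANNGAAA, which contains the core), the X2 half-site and the Y box in capitals. Psmb8 is chr17:34198088-34198116 on the plus strand, also exonic in a GENCODE transcript, with a gamma-activated site (TTCNNNGAA) in capitals.
H2-K1: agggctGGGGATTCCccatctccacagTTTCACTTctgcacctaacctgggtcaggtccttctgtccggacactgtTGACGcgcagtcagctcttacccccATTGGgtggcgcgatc
H2-D1: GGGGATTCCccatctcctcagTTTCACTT
B2m: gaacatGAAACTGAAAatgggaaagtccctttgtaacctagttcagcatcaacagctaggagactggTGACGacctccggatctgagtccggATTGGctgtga
Psmb8: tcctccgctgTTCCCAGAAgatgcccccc

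From the kappaB motif to the interferon regulatory factor core, H2-K1 and H2-D1 were identical at 28 of 29 bases. On both strands of the 8 windows, the core was found in H2-K1, H2-D1 and B2m, and in 23.9% of all 32817 windows. The full response element was found in B2m alone, against 3.43% of all windows, and the gamma-activated site in Psmb8 alone, against 8.29%. The kappaB motif was found in H2-K1 and H2-D1 (5.82% of all windows). TGACG was in 5 members (H2-K1, H2-D1, B2m, Tap1 and Psmb9) against 20.8%, and ATTGG in 6 (these 5 and Tapbp) against 37.4%. A match of letters is a description and not a measured site.

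Before the values, 3 facts on the libraries bear on every comparison below. The libraries held 19164795 to 23770537 reads in named genes. The library labelled tamoxifen 1 stood apart: its median correlation with the others was 0.913, against 0.981 to 0.990 for the other 5, its mitochondrial share of reads was 0.00923% against 1.01% to 1.56%, and the deviation of its genes from the other libraries rose with their GC content (Spearman's rho 0.70 across protein-coding genes, against -0.222 to 0.0356). Fold changes are therefore given with and without it. The targeted gene went against the labels, since Usp18 stood at 217, 214 and 176 normalized counts under the oil label and at 477, 329 and 284 under the tamoxifen label (log2 fold change 0.81, SE 0.25, adjusted p = 0.666 in limma with Benjamini-Hochberg adjustment, and 0.60 with adjusted p = 0.181 without tamoxifen 1). The groups are therefore named here by their labels. The count covers the whole gene, and how many of its reads lie in the floxed part was not measured, so it is no measure of the deletion itself. Kit, the gate's own marker, was at 4687 to 10976 normalized counts. Ptprc, which encodes the pan-leukocyte antigen CD45, was at no more than 8.08 in any library, and Mpo, a myeloid granule enzyme, at no more than 20.2, so these markers of blood and myeloid cells were almost absent. The other genes of the list for the leukemia cells were present in every library, with Runx1t1, which encodes the ETO partner of the fusion, at 1532 to 2097, Cd34, a progenitor surface marker, at 200.7 to 1052, and Hlf, a transcription factor, at 247 to 881.

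In these leukemia cells the class I chains were strongly expressed. By mean normalized count in oil, H2-D1, H2-K1 and B2m ranked 402nd, 487th and 495th of the 12298 tested genes, and Nlrc5 ranked 10460th. Per kilobase of exon, the normalized count in the oil libraries was highest for B2m (8414 ± 250; SD, n = 3), followed by H2-D1 (3212 ± 28.6) and H2-K1 (2478 ± 95.1). Psmb10 followed at 1143 ± 63.3, Tapbp at 899 ± 22.7, Psmb9 at 458 ± 17.4 and Tap1 at 386 ± 12. Tap2 (271 ± 13.6) and Psmb8 (253 ± 34.5) did not differ beyond their spread, and the other neighbours in this order did. Length here is the union of all annotated exons of a gene (860 bases for B2m, 3660 for Psmb9). The order depends on that definition as well, which the spread between libraries does not cover. Nlrc5 came last at 4.37 ± 0.567 per kilobase. The transactivator was thus the least abundant of the 10, while its class I targets led. The order of the means of tamoxifen 2 and 3 was the same, with 11379 for B2m, 3318 for H2-D1, 2448 for H2-K1 and 7.83 for Nlrc5.

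No member passed the test between the groups. Of the 12298 genes tested over all 6 libraries, 0.0% had an adjusted p under 0.05 (limma on log2(normalized count + 1)), and 0 of the 10 members did. At an unadjusted p under 0.05, 1 member, Nlrc5, passed, against 4.47% of all tested genes. On recovered reads of all 6 libraries DESeq2 called 71 genes and edgeR 0, with 0 members in either. Without tamoxifen 1, limma called 0.333% of all tested genes and again 0 members. The members' median log2 fold change was 0.42 over 6 libraries and 0.15 without tamoxifen 1. Over all tested genes the median was -0.02 in both cases. In each case 8 of 10 members were above 0, against 48.45% and 44.78% of all tested genes. With all 6 libraries kept, the members' median was 0.20 after a correction for GC content and 0.17 with library weights. Every tamoxifen library exceeded every oil library in 4 members (Tap2, Tapbp, Psmb10 and Nlrc5), against 7.86% of all tested genes, and below them in 0 members, against 9.69%. Without tamoxifen 1 the tamoxifen libraries were above oil in 5 members (the same 4 and B2m) against 12.6% of all tested genes, and below in 1 (Psmb9) against 16.8%. With 3 against 3 libraries the smallest two-sided p of an exact permutation test is 0.1, so no single gene could pass it. As no source says that the cells came from separate donors of the leukemia, p-values measure only the spread between these mice.

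**Figure D1:**
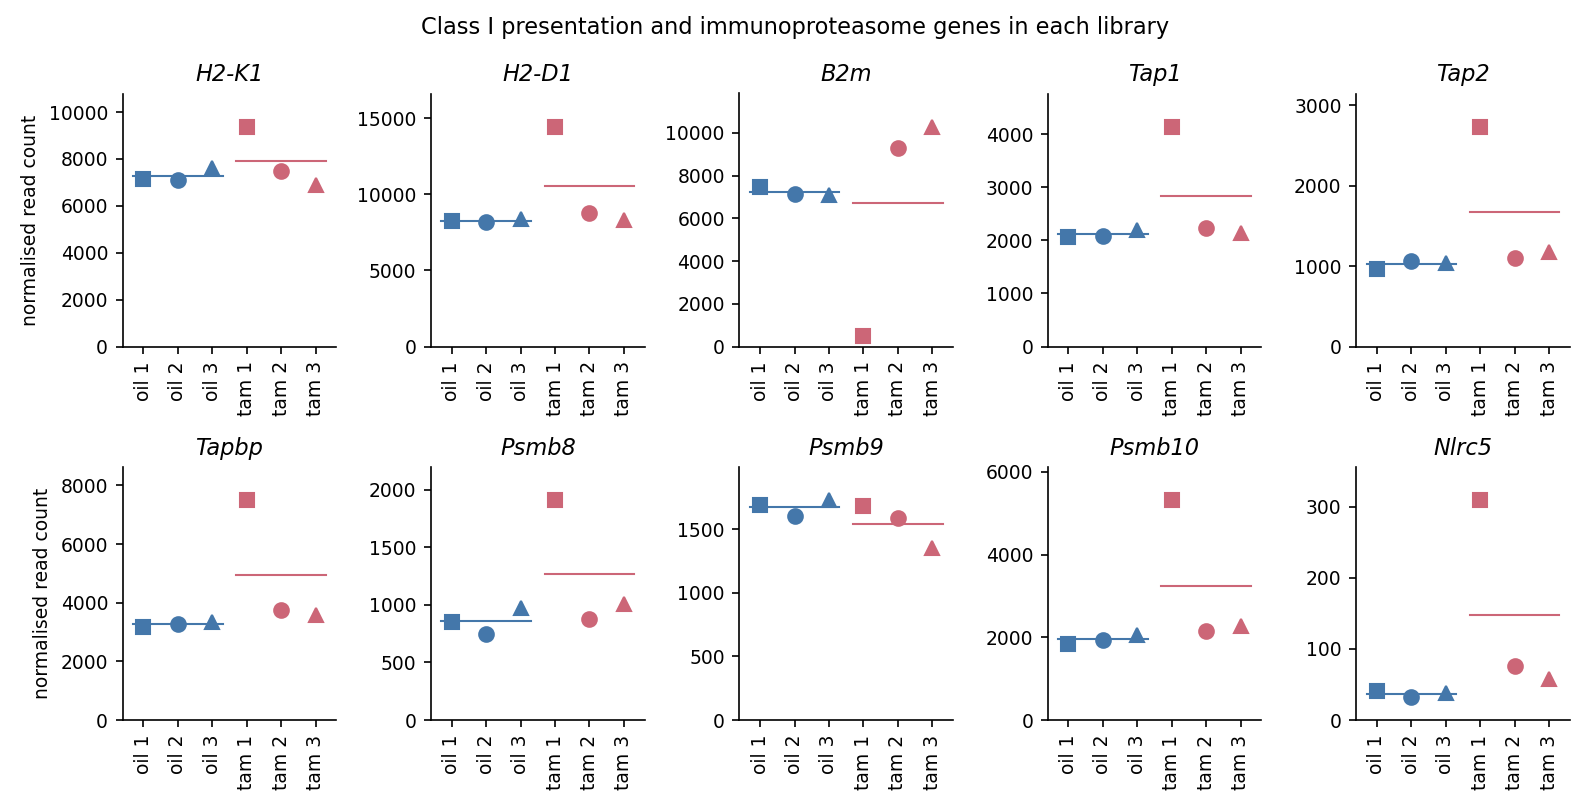
Normalized read count (y axis, linear, from 0) of each of the 10 genes in each library (x axis; tam, tamoxifen), 1 panel per gene. Squares, circles and triangles are replicates 1, 2 and 3, blue is oil, red is tamoxifen, and lines are group means; tamoxifen 1 lies above the other 5 libraries in 8 panels, far below them in B2m, and within their range in Psmb9.

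The class I heavy chains differed little from oil in tamoxifen 2 and 3, and both were highest in tamoxifen 1. H2-K1, the K molecule of the H2 locus, had 7128, 7110 and 7603 normalized counts in the oil libraries and 9386, 7498 and 6888 in tamoxifen 1, 2 and 3. Tamoxifen 1 was the highest and tamoxifen 3 the lowest of the 6, so the groups overlapped, and the log2 fold change was 0.11 (95% confidence interval -0.27 to 0.49, adjusted p = 0.736 in limma). Without tamoxifen 1 it was -0.02 (-0.19 to 0.16), a change of sign. H2-D1, the D molecule, had 8267, 8221 and 8365 in oil and 14468, 8783 and 8333 in tamoxifen. Its oil libraries differed by a coefficient of variation of only 0.889%, and tamoxifen 3 lay within their range. The log2 fold change of H2-D1 was 0.30 (-0.25 to 0.85, adjusted p = 0.666) and 0.05 (-0.12 to 0.21) without tamoxifen 1. For both heavy chains the interval without tamoxifen 1 leaves room for a change of at most 0.21 on the log2 scale. Heavy chain genes are near copies of each other, and reads they share may have been assigned to one or lost.

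B2m, the light chain of every class I molecule, gave the widest split among libraries. It had 7484, 7130 and 7095 normalized counts in oil, 512.5 in tamoxifen 1, and 9275 and 10297 in tamoxifen 2 and 3. Tamoxifen 1 was thus at 0.0708 times the oil mean, while tamoxifen 2 and 3 were both above every oil library, at 1.35 times the oil mean on average. The 512.5 rested on 401 reads, so counting error does not set it. Over all 6 libraries the log2 fold change was -0.98 with an interval of -3.64 to 1.67 (adjusted p = 0.687 in limma). Without tamoxifen 1 it was 0.43 (0.26 to 0.61). The adjusted p was then 0.0755 in limma and 0.0610 in edgeR, and 0.000117 in DESeq2 (log2 fold change 0.45), which called 1.82% of the genes it tested. B2m was the 1 member called by DESeq2 there, and this alternative was chosen after the data were seen. Patl2, whose gene model spans B2m on the other strand, had 232 to 320 in oil, 317 in tamoxifen 1, 316 in tamoxifen 2 and 567 in tamoxifen 3.

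The summed levels of the markers of 3 other cell types were higher in the libraries labelled tamoxifen, while no single marker passed the test. The summed normalized count of 10 macrophage markers was 109 to 261 in oil and 288 to 392 in tamoxifen, with none of the 10 at 0 throughout and 4 of its 8 tested genes higher without overlap, against the 7.86% of all tested genes given above. Vcam1 and Mrc1 of this list were below their oil means in tamoxifen 1, at 0.765 and 0.916 times. The sum of 6 neutrophil markers was 4.64 to 7.72 in oil and 22.7 to 43.5 in tamoxifen, with Ly6g, the defining surface marker, at 0 in every library and none of the 6 high enough to be tested. The 6 B cell markers summed to 13.5 to 27.9 in oil and 50.0 to 57.5 in tamoxifen, with Ms4a1 at 0 in every library. Without Ighm, the 1 tested gene among them, they summed to 4.64 to 9.65 in oil and 6.06 to 24.3 in tamoxifen, which overlap. The 9 T cell markers overlapped as a sum (40.5 to 68.7 and 33.7 to 104), with Cd3e and Cd8a at 0. These sums were also higher in tamoxifen 1, where B2m was low. Their part in the values of B2m, Nlrc5 and the other members was not tested, and in bulk RNA a change in the share of a cell type and a change in RNA per cell cannot be told apart.

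The peptide transporter and tapasin were higher in tamoxifen 1 and close to oil in tamoxifen 2 and 3. Tap1, the first TAP subunit, had 2071, 2080 and 2189 in oil and 4143, 2230 and 2133 in tamoxifen, and the groups overlapped. Its log2 fold change was 0.35 (-0.29 to 1.001) over all libraries and 0.05 (-0.12 to 0.21) without tamoxifen 1. Tap2, its partner, had 967, 1065 and 1041 in oil and 2738, 1097 and 1176 in tamoxifen. The Tap2 groups did not overlap, though tamoxifen 2 and oil 2 were close. The log2 fold change was 0.57 (-0.28 to 1.42, adjusted p = 0.666 in limma), or 0.15 (-0.05 to 0.35) without tamoxifen 1. Tapbp had 3173, 3275 and 3335 in oil and 7502, 3761 and 3571 in tamoxifen, again without overlap. Its log2 fold change was 0.51 (-0.19 to 1.22) and 0.17 (0.01 to 0.33) without tamoxifen 1, with an adjusted p of 0.399 in the latter. Zbtb22, which shares 3422 bases and the strand with Tapbp, had 954, 921 and 1047 in oil and 1296, 867 and 822 in tamoxifen, so that, unlike Tapbp, it was below oil in tamoxifen 2 and 3, and like Tapbp highest in tamoxifen 1.

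None of the 3 immunoproteasome subunits passed the test, and a difference between subunits was not tested. Psmb8 (LMP7), which replaces Psmb5, had 850, 743 and 976 in oil and 1911, 880 and 1008 in tamoxifen, and was the most variable of the 10 among oil libraries (coefficient of variation 13.6%). The groups overlapped, and its log2 fold change was 0.49 (-0.26 to 1.23), or 0.15 (-0.13 to 0.43) without tamoxifen 1. Psmb10 (MECL-1), which replaces Psmb7, had 1845, 1939 and 2060 in oil and 5321, 2142 and 2278 in tamoxifen, with no overlap. Its log2 fold change was 0.61 (-0.24 to 1.45, adjusted p = 0.666 in limma), and 0.18 (-0.00046 to 0.37) without tamoxifen 1. Psmb9 (LMP2), which replaces Psmb6, had 1690, 1605 and 1730 in oil and 1682, 1585 and 1354 in tamoxifen. It was the 1 member that tamoxifen 1 did not set apart, and tamoxifen 2 and 3 were the lowest of the 6. Its log2 fold change was -0.13 (-0.48 to 0.22) and -0.19 (-0.40 to 0.01) without tamoxifen 1, with adjusted p = 0.439 in limma. Psmb9 and Tap1 share their promoter region, and their GENCODE gene models overlap by 212 bases. Counting by strand is not given in the sources used here. The ratio of Psmb9 to Tap1 per kilobase was 1.16 to 1.22 in oil and 0.607, 1.06 and 0.950 in tamoxifen, below oil in all 3.

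Set against the constitutive subunits they replace, the immunoproteasome genes kept different proportions. Per kilobase, Psmb8 over Psmb5 was 0.245, 0.222 and 0.247 in oil and 0.437, 0.237 and 0.333 in tamoxifen. Psmb9 over Psmb6 was 0.319, 0.318 and 0.309 in oil and 0.284, 0.294 and 0.298 in tamoxifen, lower in all 3 though by little. Psmb10 over Psmb7 was 2.12 to 2.42 in oil, 2.43 and 2.97 in tamoxifen 2 and 3, and 29.9 in tamoxifen 1. That last value came from both sides, as Psmb7, with a GC content of 40.8%, had only 356.6 in tamoxifen 1 against 1541 to 1951 elsewhere. Of the 3 pairs, the immunoproteasome gene thus exceeded its counterpart per length only for Psmb10. The size of these ratios depends on the annotated exon lengths. These were 1705 bases for Psmb10 and 3421 for Psmb7, 3381 for Psmb8 and 899 for Psmb5, and 3660 for Psmb9 and 1872 for Psmb6. As mean normalized counts in oil, these pairs stood at 1948 and 1740, 856 and 954, and 1675 and 2719. The ratio of H2-K1 plus H2-D1 to B2m per kilobase was 0.647, 0.676 and 0.707 in oil, 0.552 and 0.466 in tamoxifen 2 and 3, and 14.8 in tamoxifen 1.

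Nlrc5 had the largest fold change of the 10. It had 41.3, 31.8 and 38.1 normalized counts in oil and 309, 75.8 and 57.3 in tamoxifen, so that all 3 tamoxifen libraries lay above all oil libraries. The values rested on 33 to 46 reads in oil, 242 in tamoxifen 1, and 75 and 63 in tamoxifen 2 and 3. The log2 fold change was 1.56 (SE 0.62, 95% interval 0.06 to 3.06), with an adjusted p of 0.666 in limma. Without tamoxifen 1 it was 0.82 (SE 0.26, 0.24 to 1.40), and the adjusted p was 0.252, with tamoxifen 2 and 3 at 1.79 times the oil mean. With a weight estimated for each library the adjusted p was 0.0531, and over all alternatives it ran from 0.0531 to 0.861. Gene models on the other strand of Nlrc5 had at most 8.95 normalized counts.

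**Figure D2:**
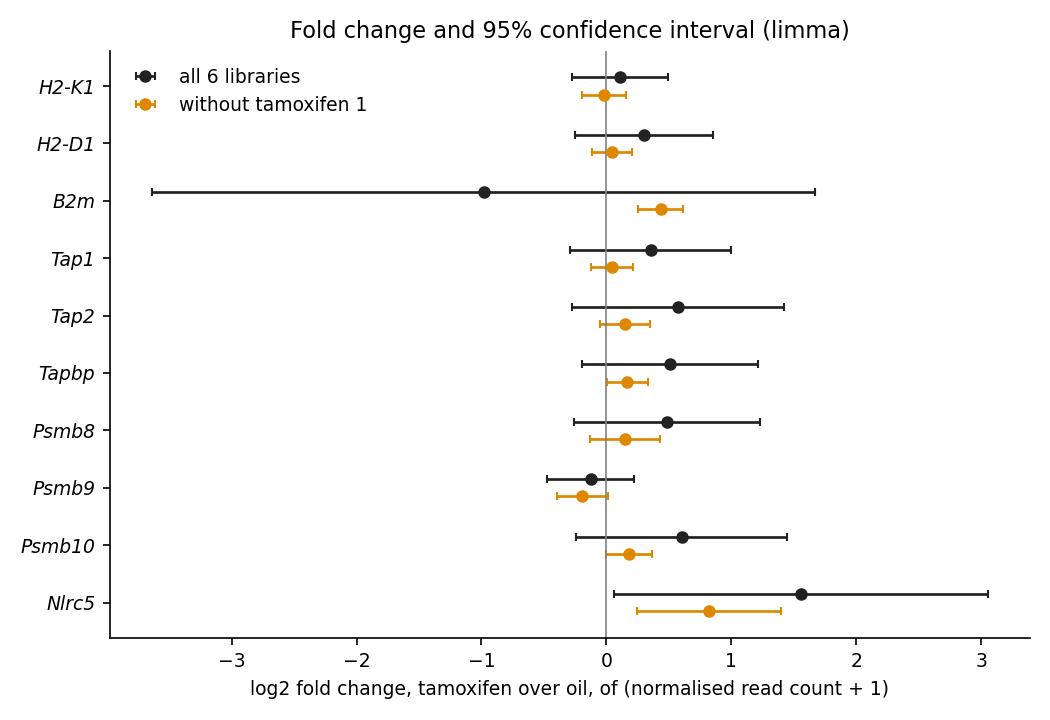
Log2 fold change of the 10 genes (tamoxifen over oil, of normalized count + 1) with its 95% confidence interval from limma, over all 6 libraries (black) and without tamoxifen 1 (orange). The intervals narrow without tamoxifen 1, B2m passes from -0.98 to 0.43, and Nlrc5 has the highest estimate in both.

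Tamoxifen 1 was above the other 5 libraries in 8 members, against 41.1% of all tested genes, and below them in 1, B2m, against 41.6%. Since this library set apart most genes, each member is set here beside genes of like GC content. The median deviation of tamoxifen 1 from the median of the other libraries was -1.06 on the log2 scale over the 1604 genes with 40% to 44% GC, the class of B2m, and B2m itself was at -3.87, the 131st lowest of all tested genes. Over genes with 52% to 56% GC it was 0.48. Of the 6 members in that class, H2-K1 (0.40) and Psmb9 (0.07) were below this median, and H2-D1 (0.80), Tap1 (0.96), Psmb8 (1.12) and Nlrc5 (2.87) above it. Nlrc5 was the 24th highest of all tested genes. In the class from 56% GC, with a median of 0.91, Tapbp was at 1.17, Tap2 at 1.36 and Psmb10 at 1.37. Across the 10 members GC content and deviation had a Pearson correlation of 0.817 and a Spearman's rho of 0.430. Without B2m these were -0.196 and 0.217, so the sign there depends on the measure. After a correction for GC content within each library the log2 fold changes over 6 libraries were smaller in most members. H2-D1 went from 0.30 to 0.09, Tap1 from 0.35 to 0.14, Tapbp from 0.51 to 0.26, Tap2 from 0.57 to 0.33, Psmb10 from 0.61 to 0.37, and B2m from -0.98 to -0.56. H2-K1 changed sign to -0.06, Psmb8 was at 0.38 and Nlrc5 at 1.45, while Psmb9 moved farther from 0, to -0.29. No member was called before or after this correction.

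**Figure D3:**
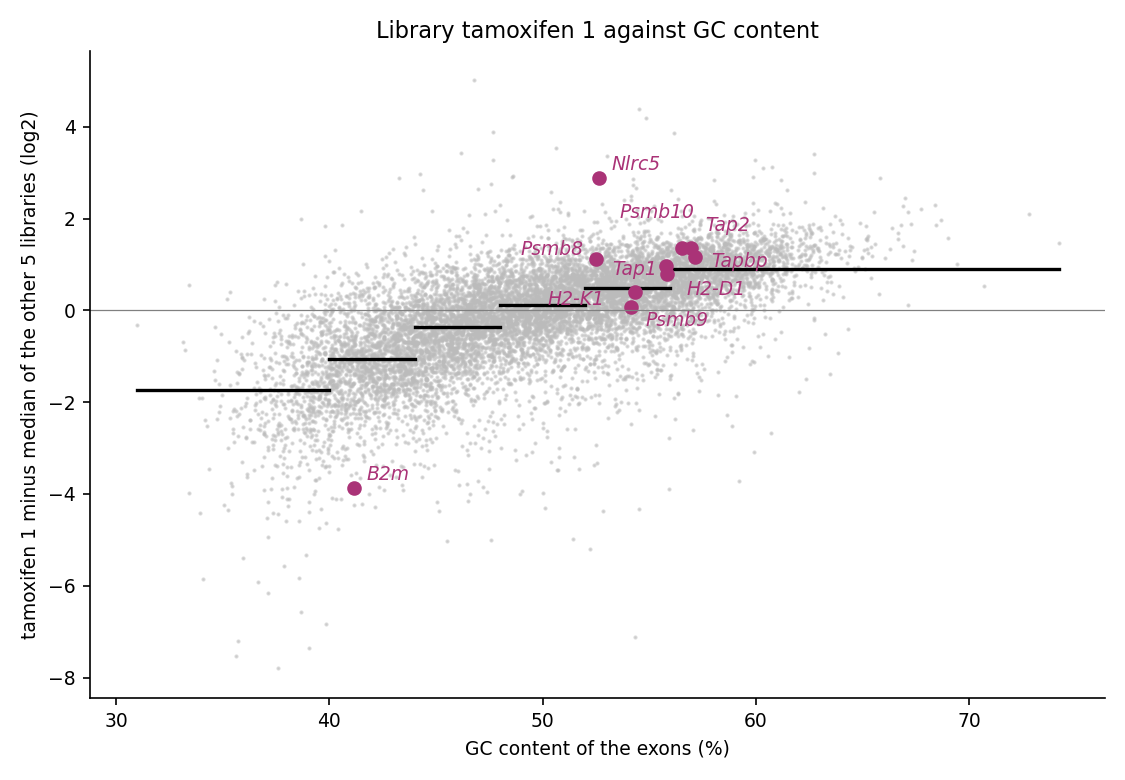
Tamoxifen 1 minus the median of the other 5 libraries (y axis, log2) against GC content (x axis, percent) for 10807 protein-coding genes (grey). GC content is that of each gene's longest transcript, black lines are the median of each GC class, and the 10 members are purple. B2m lies far below and Nlrc5 far above the median of its GC class.

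Beyond the 10 members, 49 further genes of the class I pathway were followed by role, of which 41 could be tested. None of the 51 tested genes of the whole list passed at an adjusted p under 0.05, and 2, Nlrc5 and Irf9, had an unadjusted p under 0.05, against 4.47% of all tested genes. The list's median log2 fold change was 0.14, with 34 genes above 0 (66.67%, against 48.45% of all tested genes) and 17 below. Without tamoxifen 1 it was 0.02, with 31 above (60.78%, against 44.78% of all tested genes) and 20 below. All 3 tamoxifen libraries lay above oil in 6 genes of the list (the 4 members named above, Irf1 and Irf9) and below in 0, against 7.86% and 9.69% of all tested genes. The genes of roles with up to 5 members, and the 3 largest fold changes of longer roles, are described next, and genes named outside this rule were chosen after their values were seen.

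Upstream of the members, Irf9 differed evenly across the tamoxifen libraries, while Irf1 and Stat2 were highest in tamoxifen 1. Irf9, the DNA-binding subunit of the complex that type I interferon activates, had 1578, 1652 and 1434 in oil and 2023, 2021 and 1891 in tamoxifen. All 3 tamoxifen libraries were above oil by a like amount, tamoxifen 1 included, with a log2 fold change of 0.35 (SE 0.13, adjusted p = 0.666 in limma) and 0.33 without tamoxifen 1 (adjusted p = 0.185). Irf1, an activator of class I and immunoproteasome promoters, had 66.5, 76.2 and 72.4 in oil and 221, 93.0 and 96.4 in tamoxifen. Its log2 fold change was 0.80 (-0.09 to 1.70), and 0.40 (-0.03 to 0.83) without tamoxifen 1. Stat2, which joins IRF9 in that complex, had 550 to 684 in oil and 1086, 669 and 667 in tamoxifen, with overlap. Among the proteins that NLRC5 joins on the promoter, Rfxap had 640 to 666 in oil and 1364, 670 and 630 in tamoxifen, and Creb1 had 2353 to 2709 in oil and 574, 2422 and 2468 in tamoxifen. In both of them only tamoxifen 1 lay well outside the range of the others.

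Some non-classical class I genes had few or no counted reads, and reads shared with near copies may have been assigned elsewhere or lost. Of 16 such genes 8 were too low to test, with H2-Q1, H2-Q2, H2-M2 and Cd1d2 at 0 in every library and H2-Q6, H2-Q7, H2-Q10 and H2-T3 at 3 reads or fewer. H2-T23, which encodes Qa-1, a ligand of the NKG2A receptor of natural killer cells, was the highest of them per kilobase at 1369 ± 97.4 in oil. H2-Q4 had 370 to 440 in oil and 945, 424 and 478 in tamoxifen (log2 fold change 0.48, and 0.13 without tamoxifen 1). Mr1, which presents vitamin B metabolites, had 570 to 598 in oil and 254, 592 and 531 in tamoxifen (-0.44, and -0.06 without tamoxifen 1), and Cd1d1, which presents lipids, 7.72 to 15.3 and 6.39 to 10.9 (-0.39, and -0.20 without tamoxifen 1). H2-T24 had 611 to 745 in oil and 721, 916 and 797 in tamoxifen, so tamoxifen 1 was within the oil range and the other two above it (0.28, and 0.36 without tamoxifen 1). H2-T22 had 967 to 1078 in oil and 1599, 952 and 838 in tamoxifen, so tamoxifen 1 was above every other library and tamoxifen 2 and 3 below oil (0.10, and -0.18 without tamoxifen 1).

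Peptide supply and loading genes outside the 10 stayed near their oil values in tamoxifen 2 and 3. Calr and Tapbpl, with the largest fold changes after Tapbp in their role, had log2 fold changes of 0.29 and 0.26 over 6 libraries and 0.12 and 0.01 without tamoxifen 1. Psme1 and Psme2, the interferon-inducible subunits of the proteasome activator, had 0.22 and 0.44 over 6 libraries, and -0.03 and -0.02 without tamoxifen 1. Psme3, the nuclear activator, had 0.14 in both fits. Pomp, the proteasome assembly factor, had 0.03 and -0.03. The constitutive subunits Psmb5, Psmb6 and Psmb7 had 0.03, -0.01 and -0.81, and without tamoxifen 1 all 3 were slightly below 0 (-0.09, -0.10 and -0.07). Of the cytosolic peptidases that trim or destroy peptides, Thop1 had 0.69 and Tpp2 -0.70 over 6 libraries, and 0.18 and 0.01 without tamoxifen 1. Lap3, Blmh and Npepps had 0.21, 0.05 and -0.22, and 0.11, -0.05 and -0.17 without it.

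**Figure D4:**
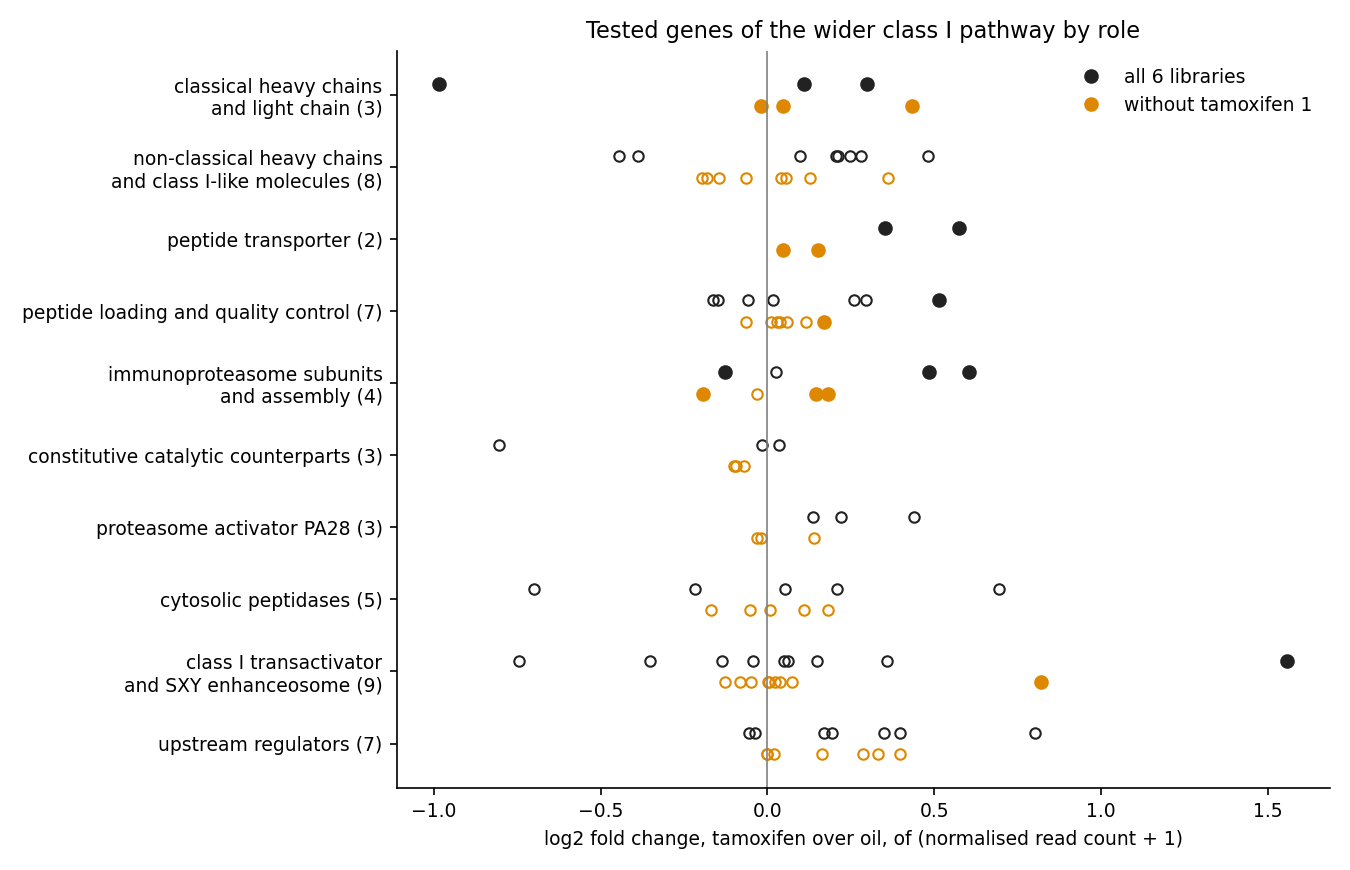
Log2 fold change (tamoxifen over oil, of normalized count + 1) of the 51 tested genes of the class I pathway by role, with the number of tested genes in brackets, over all 6 libraries (black) and without tamoxifen 1 (orange). Filled points are the 10 members and open points the other genes; most roles draw together around 0 without tamoxifen 1, where Nlrc5 is at 0.82 and B2m at 0.43, B2m having been at -0.98 over all 6.

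Across the 6 libraries the mean log2 level of the 10 members was 10.8, 10.8 and 10.9 in oil, and 11.5, 11.0 and 11.0 in tamoxifen. The genes whose values followed this mean most closely were Nop14 (Pearson's r 0.9999 over 6 libraries), Apoe, Tnfrsf18, Kat14 and Ipo4 (r 0.9951 or more), and 513 tested genes had r above 0.95. Over the 5 libraries without tamoxifen 1 they were Nop14 (0.9996), Mex3a, Thumpd1, Fgf15 and Dcun1d2. Between pairs of members the median r was 0.939 over 6 libraries, with 36 of 45 pairs above 0 and the 9 others those of B2m. Without tamoxifen 1 the median fell to 0.485, with 35 of 45 above 0. Psmb9 then had r above 0 with 2 of the other 9 members and B2m with 7. These libraries share 1 size factor each and, in tamoxifen 1, the gradient in GC content, so the correlations describe the libraries only.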

How the data were processed

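Sorted leukemia cells of 6 mice gave 1 RNA-seq library each, 3 per group, grouped by the sample labels. Per the labels' processing notes and the study's methods, the authors used STAR, DESeq2 and mm10, with versions and strand setting not given in the sources used here. The deposited values are a normalized signal, gene counts divided by 1 size factor per library, and whole reads were recovered from 100% of values (tolerance 0.1 read). The step of tamoxifen 2 (1.01) is too near 1 to be told from unscaled counts by its size alone. The table held 55450 rows, of which 1832 without a gene name (0.0400% to 0.0614% of reads) were left out. GENCODE vM21 symbols gave positions, length (the union of all exons) and GC content (of the longest transcript, for 98.9% of tested genes). RefSeq gave promoter sequences.

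The test was limma 3.58.1 (R 4.3.3) with a mean-variance trend on log2(normalized count + 1), a scale that understates changes of low genes, for genes at 10 or more in at least 3 libraries, with Benjamini-Hochberg adjustment over all of them and a two-sided threshold of 0.05. Intervals are 95% and cover the spread between libraries; a floor of 3 reads per library covers counting error only. DESeq2 1.42.0 and edgeR 4.0.16 on recovered reads, other scalings, pseudocounts and filters, a replicate block, GC correction, library weights and leaving out each library were alternatives. The scripts were tested on simulated data. The members, the class I pathway list and the marker lists were chosen with earlier results of these data known. The genes named by rule were all members, all genes of roles with up to 5 genes, the 3 tested genes with the largest fold change of longer roles, Usp18, and the 5 genes most like the members' mean. Genes that overlap a member, cell markers and some class Ib genes were named after their values were seen. Results on 2 listed genes are not reported here.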

Additional observations from a re-analysis of the deposited data

How the results depend on the processing

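Of the 10 members, 8 kept the direction of their log2 fold change under all 21 alternatives. H2-K1 turned negative under GC correction (-0.058), GC correction with the replicate block (-0.058), library weights (-0.041), without tamoxifen 1 (-0.018) and in DESeq2 without it (-0.0047). B2m turned positive under library weights (0.44), without tamoxifen 1 (0.43), and without it in DESeq2 (0.45) and edgeR (0.45). No member was called except B2m in DESeq2 without tamoxifen 1, which made 1 call among the members and 1 in the pathway list. Over all tested genes the number called was 71 in DESeq2, 2 under GC correction, 782 under library weights, and without tamoxifen 1 it was 41 in limma, 231 in DESeq2 and 46 in edgeR. Both fits on reads without tamoxifen 1 were chosen after seeing the data. Over the same 12298 genes the median log2 fold change was -0.017 in limma and 0.0043 in DESeq2. Usp18 passed under library weights (log2 fold change 0.52, adjusted p = 0.0348). Under library weights the members' median was 0.17 and the pathway list's 0.0049, and under GC correction the members' was 0.20. The cause of these changes was not tested. Leaving out 1 library at a time, H2-K1 ranged from -0.018 to 0.21, B2m from -1.73 to 0.43, the genes called ranged from 0 to 41, the members' median from 0.15 to 0.58, the list's median from 0.021 to 0.22, and members whose groups did not overlap from 4 to 7. The 7, all higher, came without oil 3 (H2-D1, Tap1 and Psmb8 added), where 11.8% of all tested genes were higher without overlap. With TMM scaling 5 members were higher (H2-D1 added) and 1 lower (Psmb9), against 7.69% and 9.87% of all tested genes. Same-numbered libraries did not deviate together from their group means (correlations -0.0236, 0.0607 and -0.153). Tamoxifen 1, which stood apart, enters the mean of its whole group, so this check cannot tell whether the numbers pair the libraries. With the replicate block 0 genes were called and the members' median was 0.42. The number of libraries limits the intervals, and Nlrc5 also the 33 to 46 reads behind each oil value.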

Other observations

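Of 6 genes of class II presentation, the counterpart pathway that CIITA controls, Cd74 and H2-DMa were high enough to be tested, and neither was called. Cd74, the invariant chain, had 44.01, 40.5 and 36.2 normalized counts in oil and 56.2, 30.3 and 17.3 in tamoxifen, so tamoxifen 2 and 3 were below every oil library and tamoxifen 1 above. On the log2 scale its fold change was -0.36 with every library kept (adjusted p = 0.7005 in limma) and -0.78 without tamoxifen 1 (adjusted p = 0.373). H2-DMa, a chain of the peptide exchange factor, had 18.6 to 37.7 in oil and 22.7 to 39.6 in tamoxifen, and the groups overlapped. Ciita itself was at 0, 0 and 0.929 normalized counts in oil and at 3.83, 0 and 9.09 in tamoxifen, which were 3, 0 and 10 reads. H2-Aa, the alpha chain of the I-A molecule, had 1.93 to 5.57 in oil and 0.909 to 7.07 in tamoxifen. H2-Ab1, its beta chain, had 0 to 4.49 in oil and 10.2, 7.07 and 0.909 in tamoxifen. H2-Eb1, the beta chain of the I-E molecule, had 0.9285 to 2.695 in oil (1 to 3 reads) and 20.45, 9.09 and 0.909 in tamoxifen (16, 9 and 1 reads), so the groups overlapped. The 6 class II markers together summed to 65.0 to 91.6 in oil and 51.8 to 136 in tamoxifen, and the groups overlapped. Most of the single values of Ciita, H2-Aa, H2-Ab1 and H2-Eb1 rest on fewer than 10 reads, none of these 4 genes was tested, and no order is read from them.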
